A study of Mus musculus with 6 samples.

Results

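Pluripotent stem cells are held in their state by a small network of genes that differentiating cells shut down. *Pou5f1* and *Nanog* encode core transcription factors of that network, *Klf4*, *Esrrb*, *Tfcp2l1*, *Zfp42* and *Prdm14* encode factors that mark or sustain its naive state, *Fgf4* and *Lefty1* encode secreted signals, and *Lin28a* encodes an RNA-binding protein that blocks maturation of let-7 miRNAs. Neural stem/progenitor cells (NSPCs) use *Sox2* without most of these partners, although *Klf4*, *Lin28a* and others are also used outside pluripotent cells. The regions described here are the accessible chromatin intervals whose strongest summit lay nearest to a start site (TSS) of 1 of these 10 genes, among all protein-coding genes, and at most 50 kb from it. There were 25 such intervals of 82885 in the parent list and 35 of 107480 in the deletion list, so 60 of 190365 in all.

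The intervals came from ATAC-seq, in which a transposase cuts open chromatin, on NSPCs derived from mouse embryonic stem cells of a 129S1/Cast F1 hybrid. The parent group was 3 cultures of clone 5B, which carries Sox2-mCherry on its 129 allele and no deletion. The deletion group was 3 cultures of clone 47D, which carries the same Sox2-mCherry allele and a homozygous deletion of SRR2–18, a cluster of *Sox2* enhancers, made with Cas9 in the embryonic stem cells. Both groups grew on poly-d-lysine and laminin in N2B27 with EGF and bFGF, and each genotype was a single clone, so genotype and clone cannot be told apart. The authors pooled the 3 cultures of a genotype into 1 list, so no value below has a replicate error and no difference was tested.

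The conservative lists kept peaks that passed the authors' reproducibility filter (IDR) between cultures. Fold enrichment is the reads at a summit over the local background, with 1 added to each. Relative signal is the reads at an interval's highest summit divided by the lowest background of its list, which was 38.8 reads in the parent list and 19.7 in the deletion list, a ratio of 1.98 in depth. The 12 neural stem and progenitor marker genes, such as *Nes*, *Pax6* and *Sox1*, had an interval within 1 kb of a TSS in both lists, and 10 of them had fewer intervals in the deletion list. Of 9 primitive endoderm and trophoblast markers, 4 had such a promoter interval in the parent list and 8 in the deletion list, and 7 had more intervals in the deletion list. Over all protein-coding genes, 60.6% had a promoter interval in the parent list and 63.7% in the deletion list. The deletion list held more intervals at 36.8% of all genes and fewer at 22.4%. The part of the shifts at these markers in the results below was not tested.

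The summit windows that carry the description are printed first, as 201 bases of the mm10 plus strand. *Lin28a* had the interval with the highest fold enrichment among those shared by both lists, and *Prdm14* and *Lefty1* had the highest among the parent-only and deletion-only intervals. The *Klf4* promoter window is the summit of the parent list. The 3 *Nanog* and *Klf4* windows upstream of the genes were chosen after their values were seen. Capitals mark exact matches on either strand to AP-1 (TGANTCA, in the *Lefty1*, *Nanog* −17.6 kb and *Klf4* −46.6 kb windows), SOX (ACAANGG, in the *Prdm14* window), KLF (GGGNGNGGC, in the *Klf4* promoter window, where the last 2 of 3 matches overlap) and CTCF (the *Lin28a* window).

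Lin28a −17.3 kb, shared, chr4:134036063-134036263: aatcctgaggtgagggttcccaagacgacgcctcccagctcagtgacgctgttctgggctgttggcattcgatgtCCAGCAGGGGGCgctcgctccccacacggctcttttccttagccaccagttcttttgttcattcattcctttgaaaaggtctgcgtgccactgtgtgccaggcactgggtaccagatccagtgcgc
Prdm14 −44.1 kb, parent-only, chr1:13171194-13171394: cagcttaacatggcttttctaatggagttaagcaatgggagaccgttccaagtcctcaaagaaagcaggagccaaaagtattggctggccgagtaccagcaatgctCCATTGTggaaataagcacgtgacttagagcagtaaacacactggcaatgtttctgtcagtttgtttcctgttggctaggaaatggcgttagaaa
Lefty1 −3.7 kb, deletion-only, chr1:180931231-180931431: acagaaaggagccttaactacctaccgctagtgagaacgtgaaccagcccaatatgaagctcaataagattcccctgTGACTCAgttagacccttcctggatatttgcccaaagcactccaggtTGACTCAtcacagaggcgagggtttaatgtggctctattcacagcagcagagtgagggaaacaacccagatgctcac
Klf4 promoter, shared, chr4:55532588-55532788: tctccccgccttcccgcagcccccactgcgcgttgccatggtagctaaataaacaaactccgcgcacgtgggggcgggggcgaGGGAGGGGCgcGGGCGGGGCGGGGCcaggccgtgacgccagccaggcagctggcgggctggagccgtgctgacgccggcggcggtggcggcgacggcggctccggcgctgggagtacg
Klf4 −46.6 kb, deletion-only, chr4:55578945-55579145: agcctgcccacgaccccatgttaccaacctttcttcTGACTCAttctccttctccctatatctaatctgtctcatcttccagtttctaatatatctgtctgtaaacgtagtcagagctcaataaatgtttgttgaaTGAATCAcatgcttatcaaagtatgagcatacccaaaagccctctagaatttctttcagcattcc
Nanog −17.6 kb, deletion-only, chr6:122689825-122690025: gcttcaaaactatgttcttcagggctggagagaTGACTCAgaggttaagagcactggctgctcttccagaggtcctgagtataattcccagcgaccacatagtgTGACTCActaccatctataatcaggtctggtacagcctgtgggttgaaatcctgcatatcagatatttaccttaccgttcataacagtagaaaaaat
Nanog −4.8 kb, shared, chr6:122702601-122702801: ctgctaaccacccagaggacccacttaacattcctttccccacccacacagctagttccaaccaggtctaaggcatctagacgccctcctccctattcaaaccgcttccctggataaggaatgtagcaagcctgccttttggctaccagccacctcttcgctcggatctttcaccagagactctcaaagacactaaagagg

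Most members had no listed interval at their own promoter. A strongest summit lay within 1 kb of a TSS at *Klf4*, *Esrrb* and *Tfcp2l1*, the same 3 of 10 members in both lists, and at none of *Pou5f1*, *Nanog*, *Zfp42*, *Prdm14*, *Fgf4*, *Lefty1* and *Lin28a*. Over all 21924 protein-coding genes, 60.6% had such a promoter interval in the parent list and 63.7% in the deletion list. The other 22 intervals of the parent list and 32 of the deletion list were distal. By the position of the strongest summit, 12 parent intervals lay in introns, 12 between genes and 1 in an exon, and 14, 17 and 4 deletion intervals did. At least 1 interval was assigned to 7 members in the parent list and to 9 in the deletion list, where 73.6% and 77.1% of all protein-coding genes had one.

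**Figure D1:**
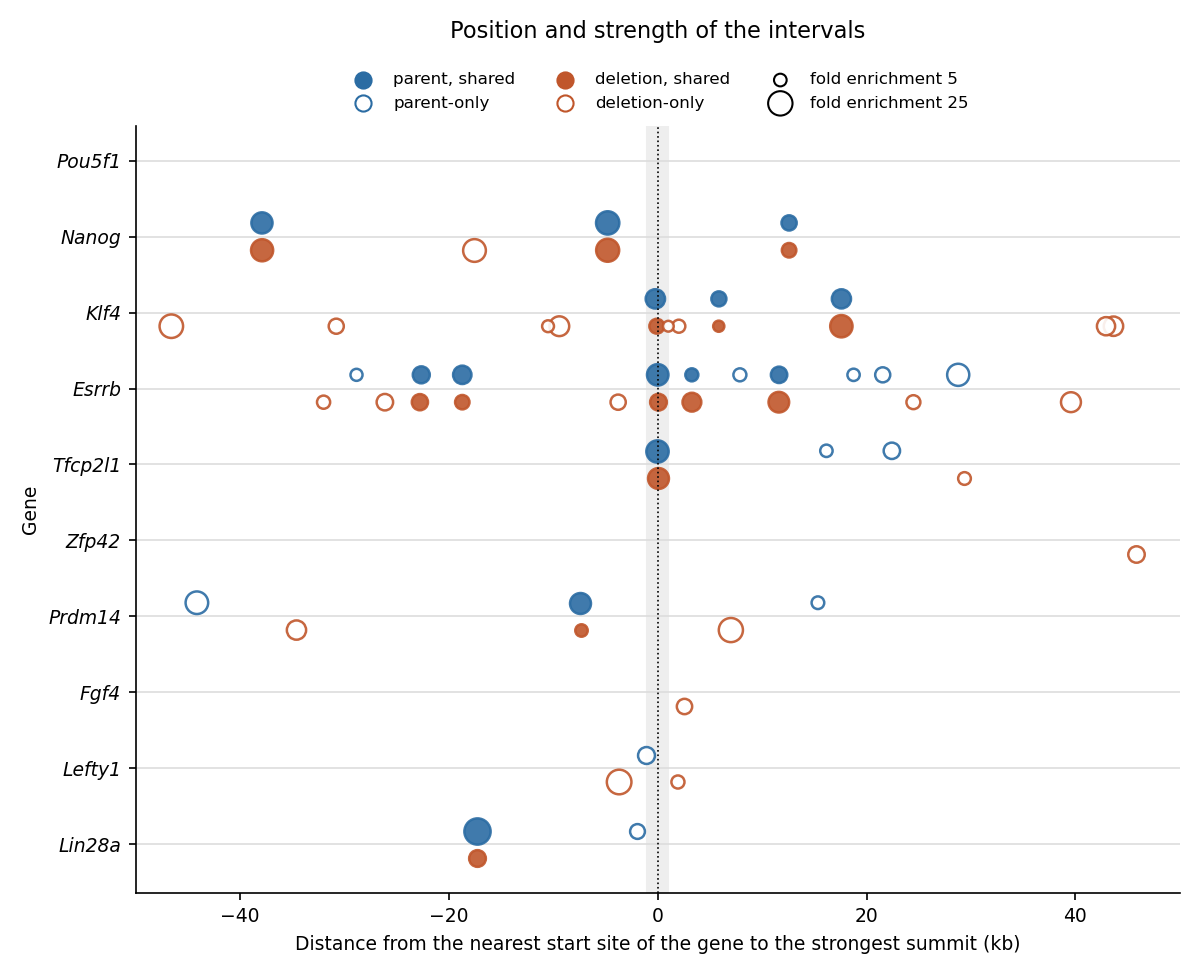
Each circle is an interval, placed by the distance in kb from the nearest TSS of the gene to the strongest summit, with its area growing with fold enrichment. Blue circles are the parent list and orange circles the deletion list, filled where the other list held an overlapping interval. The grey band marks 1 kb on each side of the TSS, where *Klf4*, *Esrrb* and *Tfcp2l1* have circles in both lists and the other 7 genes have none.

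The share of intervals found in 1 list alone was near that of all intervals. Of the 25 parent intervals, 14 overlapped a deletion interval and 11 were parent-only (44.0%), where 52.3% of all parent intervals were. Of the 35 deletion intervals, 14 were shared and 21 deletion-only (60.0%), where 63.1% of all deletion intervals were. The median fold enrichment of the members was 10.7 in the parent list and 10.1 in the deletion list, beside 9.81 and 10.5 over all intervals. With both lists held to the same number of intervals by fold enrichment, the members had 25 parent and 26 deletion intervals. *Klf4* held 8 of the 21 deletion-only intervals and *Esrrb* 5 of them, and *Esrrb* held 5 of the 11 parent-only intervals.

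**Figure D2:**
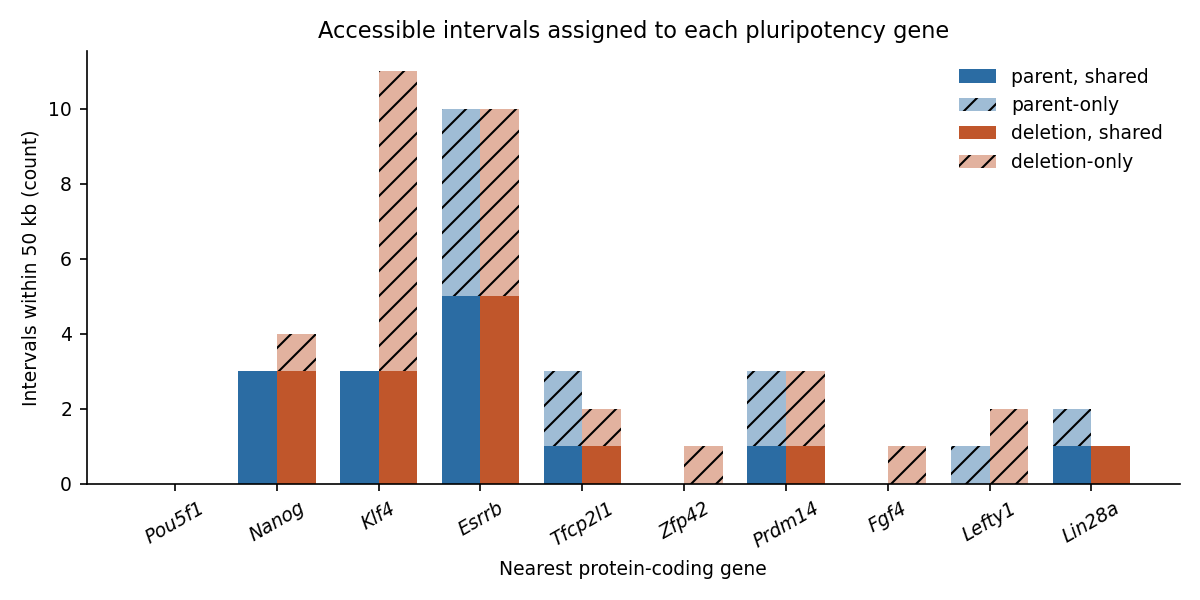
Bars give the number of intervals within 50 kb assigned to each gene in the parent list (blue) and the deletion list (orange), with shared intervals solid and intervals of 1 list hatched. *Klf4* has 3 against 11 intervals, *Esrrb* has 10 in each list, and *Pou5f1* has none.

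*Pou5f1* (ENSMUSG00000024406.16, chr17:35506018-35510772, plus strand), which encodes OCT4, had no interval in either list. The summit nearest to its TSS lay 10953 bp away in the parent list and 10969 bp away in the deletion list, and in both lists it was nearer to *Cchcr1*. Accessible chromatin was therefore listed around the locus but not at the gene. Absence from a list says that no peak passed the authors' filter, not that the site was closed.

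*Nanog* (ENSMUSG00000012396.12, chr6:122707489-122714633, plus strand) encodes the homeodomain partner of OCT4, and its 3 parent intervals were all shared. The strongest lay 4788 bp upstream, at chr6:122702371-122703264, with a fold enrichment of 22.6 in the parent list and 22.1 in the deletion list and a relative signal of 81.4 and 65.3. It ranked in the top 4.49% of the parent list and the top 7.40% of the deletion list by fold enrichment, and its window, printed above, held none of the searched motifs. At 37.9 kb upstream the relative signal was 18.7 in the parent list and 21.1 in the deletion list. At 12.6 kb downstream of a TSS it was 8.42 and 7.58. The 3 log2 ratios of deletion over parent, −0.32, 0.18 and −0.15, lay close to the median of −0.23 over all 39500 shared intervals and to −0.10 over 22 shared intervals in the 1 Mb on each side. A deletion-only interval lay 17.6 kb upstream with a fold enrichment of 21.4, and its window held 2 AP-1 matches. The *Nanog* promoter itself, in contrast to these flanking sites, was in neither list.

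*Klf4* (ENSMUSG00000003032.8, chr4:55527143-55532466, minus strand), which encodes a zinc-finger factor also used in epithelia, was the member whose number of intervals differed most. It had 3 intervals in the parent list and 11 in the deletion list, a gain of 8. A gain at least as large, a limit set by this value, was seen at 258 of 21924 protein-coding genes (1.18%). The promoter interval was shared, with 3612 summit reads in the parent list and 1313 in the deletion list and a relative signal of 93.0 and 66.8. Its log2 ratio of −0.48 was within the quartiles of all shared intervals, −0.71 and 0.49. Relative to the median of the shared intervals in the 1 Mb on each side it was −0.86. The fold enrichment of the promoter interval was 14.8 in the parent list and 7.80 in the deletion list.

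The other 2 shared intervals of *Klf4* had a higher relative signal in the deletion list, and its remaining intervals were found in that list alone. At 17.6 kb downstream of the TSS the relative signal was 14.9 in the parent list and 51.6 in the deletion list, a log2 ratio of 1.80 that was above that of 91.8% of all shared intervals. At 5.9 kb downstream it was 8.19 and 11.5, although the fold enrichment over the local background there was 8.01 in the parent list and 3.32 in the deletion list. Among the 8 deletion-only intervals, the interval 46.6 kb upstream, in an intron of *Gm12511*, had the highest fold enrichment, 23.1. Next came 15.6 at 9.4 kb upstream and 14.9 and 12.9 at 43.7 and 42.9 kb downstream. The interval 2024 bp downstream, in a coding exon of *Klf4*, and that at 1021 bp, in an intron, had 965 and 510 summit reads over a local background of 177 and 173, so their fold enrichment was only 5.42 and 2.94. The remaining 2 lay 10.5 and 30.8 kb upstream with a fold enrichment of 4.07 and 8.08.

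The neighbourhood of *Klf4* also held more intervals in the deletion list. Within 1 Mb on each side, leaving out the member intervals, the parent list held 72 intervals and the deletion list 123. The whole lists held 82885 and 107480. Of the 123, 76.4% were deletion-only, where 63.1% of all deletion intervals were. In the flanks of the other members that share ran from 34.1% at *Pou5f1* to 100% at *Zfp42*, and it was 76.6% at *Prdm14*. The median log2 ratio of 29 shared intervals near *Klf4* was 0.38. Whether the *Klf4* intervals differ apart from their neighbourhood was not tested. When genes of every type competed for the nearest TSS, *Klf4* had 6 intervals in the deletion list beside 2 in the parent list. With both lists held to the same number of intervals by fold enrichment it had 7 beside 3, and within 10 kb of the TSS it had 5 beside 2.

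*Esrrb* (ENSMUSG00000021255.17, chr12:86361117-86521628, plus strand), an orphan nuclear receptor gene with 4 annotated start sites, had 10 intervals in each list. That was more than 96.6% of genes in the parent list and 95.1% in the deletion list. Its start sites are spread along the gene, so the 50 kb rule drew on a longer stretch than at a gene with 1 start site. The part of this in the count was not tested. Of the 10 in each list, 5 were shared and 5 were in 1 list alone. Over all intervals, 52.3% of the parent list and 63.1% of the deletion list were in 1 list alone. No strongest summit lay within 1 kb of its first TSS, and the promoter interval of both lists lay at an internal TSS 60.5 kb into the gene. There the summit reads were 2370 in the parent list and 455 in the deletion list, the relative signal was 61.0 and 23.1, and the log2 ratio was −1.40. The other 4 shared intervals went the opposite way. At 3.3 kb from the first TSS the relative signal was 6.26 in the parent list and 34.0 in the deletion list, a log2 ratio of 2.44 that was above that of 95.9% of all shared intervals. At 22.6 kb upstream of the internal TSS the relative signal was 12.8 and 51.7 (log2 ratio 2.01), at 11.6 kb downstream of an internal TSS it was 10.2 and 28.7 (log2 ratio 1.49), and at 18.7 kb upstream of the first internal TSS it was 15.0 and 24.1 (log2 ratio 0.68). Among the intervals of 1 list, the strongest of the parent list lay 28.8 kb from a TSS with a fold enrichment of 20.1, and the strongest of the deletion list lay 39.6 kb from a TSS with 15.9.

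*Esrrb* lies in a stretch of chromosome 12 where the deletion list was higher at most shared intervals. At 911 shared intervals from 75 Mb to the end of the chromosome the median log2 ratio was 0.54, at 817 intervals before 75 Mb it was −0.25, and the medians of the other autosomes ran from −0.29 to −0.12. The 75 Mb split was chosen after the values were seen. The distal median was 0.78 above that of the other autosomes, a ratio of 1.72. Within 1 Mb of *Esrrb* the median of 89 shared intervals was 0.46. Relative to that flank, the internal promoter was at −1.86 and the other 4 intervals at 1.98, 1.55, 1.03 and 0.22. The part of the segment in the *Esrrb* values was not tested.

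**Figure D3:**
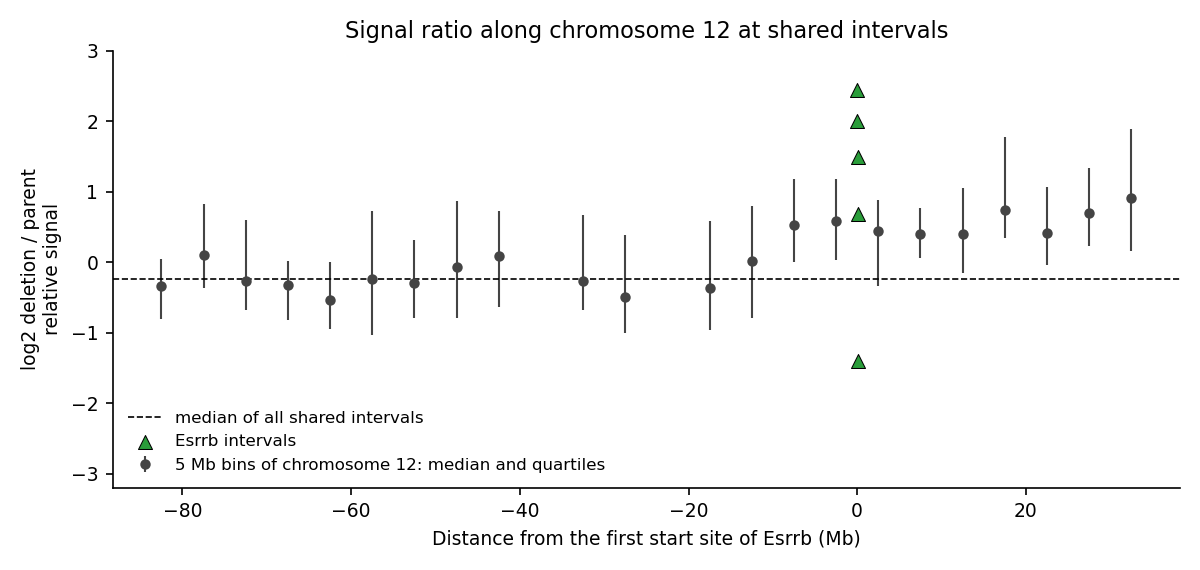
The log2 ratio of deletion over parent relative signal at shared intervals is plotted against the distance in Mb from the first TSS of *Esrrb* along chromosome 12. Grey points are medians of 5 Mb bins with at least 20 shared intervals, bars are quartiles, and the dashed line is the median of all shared intervals, −0.23. From the bin centred 7.5 Mb before *Esrrb* onwards every bin median plotted is at least 0.40, and of the green *Esrrb* intervals 4 lie above 0 and 1 at −1.40.

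*Tfcp2l1* (ENSMUSG00000026380.10, chr1:118627945-118685168, plus strand), which encodes a factor that acts downstream of LIF signalling, had a shared promoter interval with a relative signal of 39.0 in the parent list and 28.5 in the deletion list. The log2 ratio was −0.45, beside −0.31 over the 34 shared intervals of its flank. Its other intervals were intronic. The parent list held 2, at 16.2 kb and 22.4 kb with a fold enrichment of 4.67 and 9.93, and the deletion list held 1, at 29.3 kb with 5.03. None of these 3 had a counterpart in the other list.

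*Zfp42* (ENSMUSG00000051176.6, chr8:43295063-43306980, minus strand), which encodes REX1, had no interval in the parent list and 1 in the deletion list, 45.8 kb downstream, with a fold enrichment of 10.1 and 207 summit reads. Its window held 2 AP-1 matches and 1 SOX match. The locus was poor in intervals in general. Within 1 Mb on each side the parent list held 1 interval and the deletion list 12 besides that one, and the parent summit nearest to *Zfp42* lay 588.5 kb away.

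*Prdm14* (ENSMUSG00000042414.7, chr1:13113457-13127163, minus strand), which encodes a PR-domain factor of naive and germ cells, had 3 intervals in each list and shared 1. That interval, 7.4 kb upstream, had a relative signal of 19.6 in the parent list and 4.93 in the deletion list. Its log2 ratio of −1.99 was the lowest of the 14 shared member intervals, and 4.46% of all shared intervals were lower. The deletion value was near the bottom of its list, with 97 summit reads (top 98.8%) and a fold enrichment of 4.74. The 17 shared intervals of its flank had a median of 0.28. The parent list alone held intervals 44.1 kb upstream (fold enrichment 21.1) and 15.3 kb downstream (4.97). The deletion list alone held intervals 7.0 kb downstream, in an intron of *Prdm14* (fold enrichment 24.4), and 34.6 kb upstream (14.7). Both upstream intervals lay in introns of *Ncoa2* and were assigned to *Prdm14* by its nearer TSS.

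*Fgf4* (ENSMUSG00000050917.5, chr7:144847367-144865243, plus strand), the FGF ligand that primes embryonic stem cells for differentiation, had no parent interval. Its only TSS in the annotation used lies at chr7:144861386, inside the gene coordinates given here. The deletion list held 1 interval, 2539 bp downstream of that TSS in an annotated UTR, with a fold enrichment of 8.44 and 213 summit reads. The nearest parent summit lay 21926 bp from the TSS and was nearer to *Fgf15*.

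*Lefty1* (ENSMUSG00000038793.8, chr1:180935022-180938400, plus strand) encodes an inhibitor of Nodal signalling, and its intervals did not overlap between the lists. The parent list held 1, 1150 bp upstream, with a fold enrichment of 10.7 and 455 summit reads. The deletion list held 1 at 3691 bp upstream with a fold enrichment of 25.5 and 1028 summit reads, in the top 2.52% of its list, and 1 at 1941 bp downstream with 5.47 and 112 reads. The parent interval and the upstream deletion interval were 1523 bp apart, and the window of the latter held 2 AP-1 matches.

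*Lin28a* (ENSMUSG00000050966.9, chr4:134003330-134018841, minus strand) had the highest fold enrichment of any member. At 17.3 kb upstream it was 29.4 in the parent list, in the top 0.24%, and 10.5 in the deletion list. The summit reads were 1169 and 216, and the relative signal was 30.1 and 11.0. The log2 ratio was −1.45, beside −0.31 over 107 shared intervals of the flank. The summit window held a CTCF consensus match in both lists. A parent-only interval lay 1952 bp upstream of the TSS with a fold enrichment of 7.68.

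**Figure D4:**
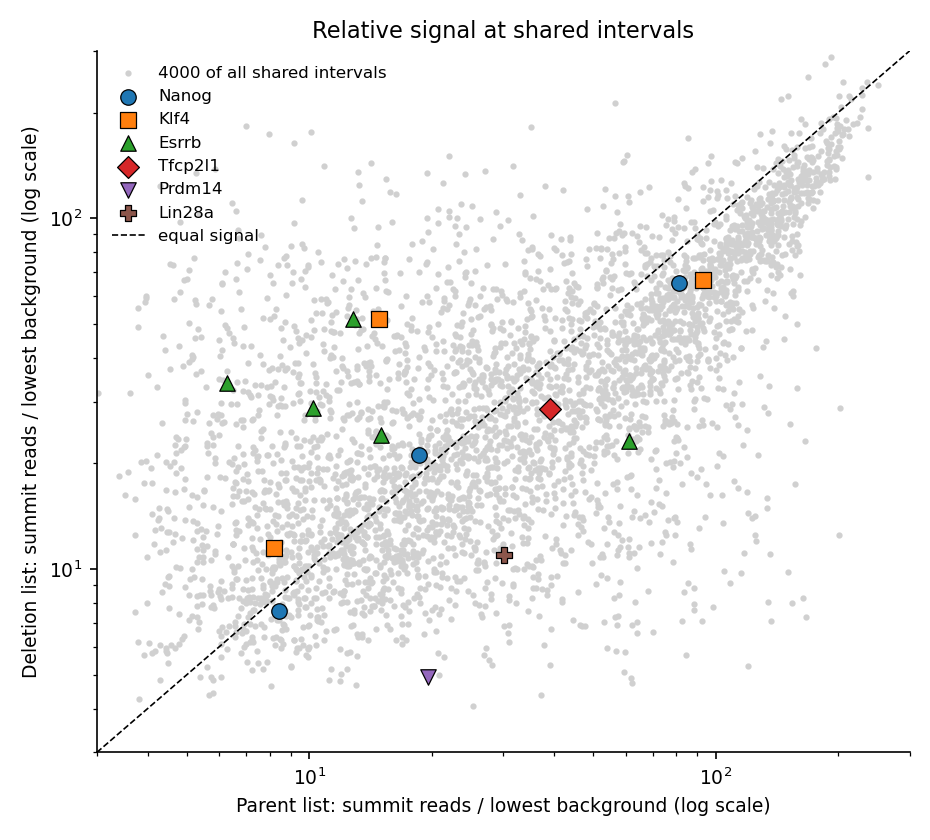
Relative signal (summit reads over the lowest background, log scales) at shared intervals is plotted for the parent list on the horizontal axis and the deletion list on the vertical axis. Grey points are 4000 of all shared intervals, coloured symbols are the 14 member intervals by gene, and the dashed line marks equal signal. *Prdm14* and *Lin28a* lie below the line at −1.99 and −1.45, and 4 of 5 *Esrrb* intervals lie above it.

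Over the 14 shared member intervals the log2 ratio ran from −1.99 to 2.44 with a median of 0.01, and 7 were below 0 and 7 above. Outside *Esrrb*, 6 of 9 were below 0 and the median was −0.32, beside −0.23 over all shared intervals. Values near the common median stood at *Nanog*, *Tfcp2l1* and the *Klf4* promoter. Of the 14, 5 were above the upper quartile of all shared intervals and 3 below the lower quartile, where by definition 25% of all shared intervals lie beyond each. All of the 5 but the *Klf4* interval 17.6 kb downstream were at *Esrrb*, in the chromosome 12 stretch described above.

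Motif matches at the member summits are set beside those of all intervals of the same overlap class. AP-1, the dimer of FOS and JUN factors, matched 8 of the 21 deletion-only windows (38.1%), 0 of the 11 parent-only windows, 1 of 14 shared windows centred on the parent summit and 2 of 14 centred on the deletion summit. Over all intervals the shares were 50.7% of deletion-only, 4.59% of parent-only, 10.2% of shared parent and 16.1% of shared deletion windows. The 8 were 2 at *Klf4* and 1 each at *Nanog*, *Esrrb*, *Tfcp2l1*, *Zfp42*, *Prdm14* and *Lefty1*. The SOX motif matched 3 of 11 parent-only windows, at *Tfcp2l1*, *Prdm14* and *Lefty1*, and 2 of 21 deletion-only windows, where 18.8% and 9.29% of all windows of these classes held it. The KLF motif matched 3 of 14 shared parent windows (17.8% of all), at the *Klf4* and *Tfcp2l1* promoters and at *Klf4* 17.6 kb downstream. The octamer ATGCAAAT, bound by OCT4, and the ESRRB motif TCAAGGTCA matched no member window in either list, and they were rare in general, with the octamer in 3.12% of all parent-only windows. The CTCF consensus, added after the lists were seen, matched 2 of 14 shared parent windows, at *Lin28a* and at *Esrrb* 18.7 kb upstream of the internal TSS, where 7.03% of all shared parent windows held it.

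The base composition of the promoters was a further property that the choice of genes did not use. CpG-rich promoters are often open in many cell types. RefSeq promoter windows of 300 bases (250 before to 50 after the start, GRCm38.p6) were found for 8 of the 10 members. The observed over expected CpG ratio was 0.97 at *Klf4*, 0.66 at *Tfcp2l1* and 0.32 at the internal start of *Esrrb*, promoters that were in both lists. The ratio was 0.27 at the first start of *Esrrb*, where neither list held a strongest summit within 1 kb. Among the members without a promoter interval it was 0.77 at *Fgf4*, 0.44 at *Zfp42*, 0.37 at *Pou5f1*, 0.35 at *Lin28a* and 0.19 at *Nanog*. Over all genes with a window the median was 0.78 for 9936 genes with a promoter interval in both lists (quartiles 0.61 and 0.92) and 0.18 for 5233 genes with none in either (quartiles 0.09 and 0.31). *Klf4* was above and *Nanog* near these medians, *Fgf4* had a high ratio without an interval and *Esrrb* a low ratio with one. The 150 bases before the start are printed for *Klf4* and *Nanog*, the members with the highest and the lowest ratio. They read 5′ to 3′ on the strand of the gene, with CpG in capitals, 20 in the first and 1 in the second.

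Klf4, minus strand, chr4:55532476-55532625: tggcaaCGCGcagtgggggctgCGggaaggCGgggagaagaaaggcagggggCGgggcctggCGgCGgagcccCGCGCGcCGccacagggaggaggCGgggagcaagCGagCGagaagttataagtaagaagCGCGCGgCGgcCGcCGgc
Nanog, plus strand, chr6:122707339-122707488: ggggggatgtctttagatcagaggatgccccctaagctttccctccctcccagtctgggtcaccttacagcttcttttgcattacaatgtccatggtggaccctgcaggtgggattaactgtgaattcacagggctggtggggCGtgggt

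Among 29 further genes of the pluripotency network, 13 had a promoter interval in the parent list and 17 in the deletion list, and 12 (41.4%) had one in neither. Over all protein-coding genes, 60.6% had a promoter interval in the parent list, 63.7% in the deletion list and 33.5% in neither. The 29 genes held 97 intervals in the parent list and 100 in the deletion list. The number was higher in the deletion list at 13 genes, lower at 9 and equal at 7. Over all protein-coding genes it was higher at 36.8% and lower at 22.4%. *Sox2* was among the genes with fewer, with 9 in the parent list and 4 in the deletion list. The deletion group lacks the enhancer cluster downstream of *Sox2*, so its list could hold no interval there. How many of the parent intervals of *Sox2* lay in that cluster was not tested. *Lifr*, the LIF receptor gene, had the most in the parent list, 21, and 10 in the deletion list. *Tbx3*, a T-box factor gene, had the most in the deletion list, 11, and none in the parent list. *Nr0b1*, *Dppa4*, *Dppa5a* and *Gdf3* had none in either list, as at *Pou5f1*.

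**Figure D5:**
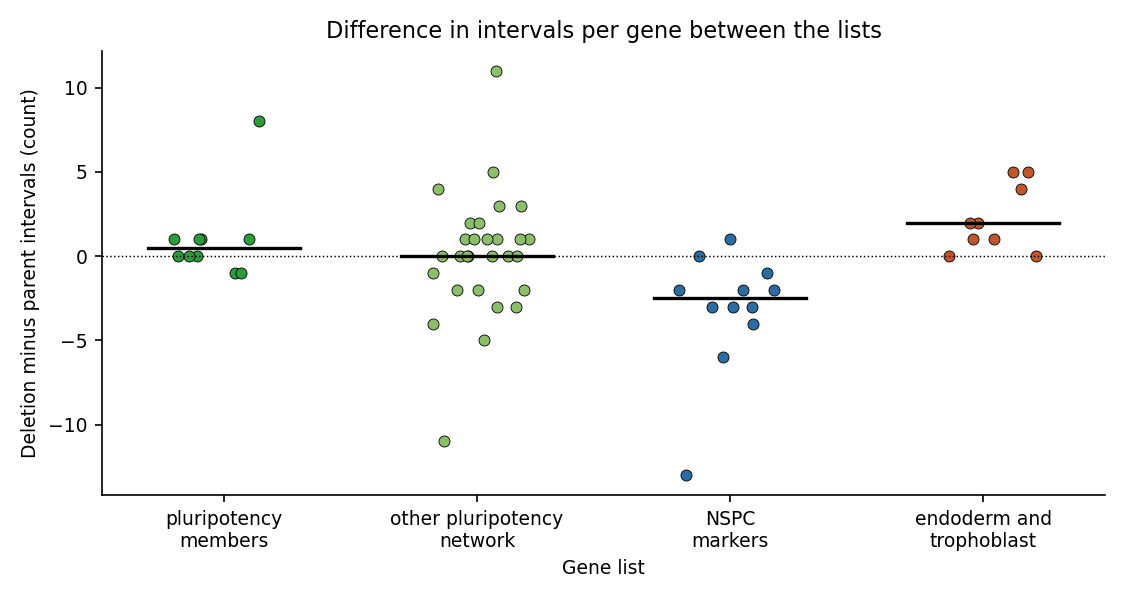
Each point is a gene, and the vertical axis gives its intervals in the deletion list minus those in the parent list, by gene list, with a bar at the median. *Klf4*, at 8, is the member farthest from 0, the neural stem and progenitor markers lie mostly below 0, and no endoderm or trophoblast marker lies below 0.

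The 50 kb limit passed close to several intervals. Just inside it were the *Klf4* interval 46.6 kb upstream and the *Zfp42* interval 45.8 kb downstream in the deletion list, and the *Prdm14* interval 44.1 kb upstream in the parent list. Just outside it were a *Klf4* interval in both lists, 54.3 kb downstream with a fold enrichment of 6.75 in the parent list and 54.4 kb downstream with 3.97 in the deletion list, and a deletion-only *Esrrb* interval 55.8 kb upstream with 19.4. Assignment to the nearest TSS does not show which gene an interval regulates, and at 6 of the 25 parent and 11 of the 35 deletion intervals a gene that is not protein-coding had a nearer TSS.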

How the data were processed

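The authors made ATAC-seq libraries from 3 cultures of each genotype. The labels give 30000 cells per culture, 11 to 14 PCR cycles and paired-end runs of 50 cycles. Per the study's methods, reads were processed with the ENCODE ATAC-seq pipeline, peaks were called with MACS2 and reproducible peaks were kept by IDR; the labels name mm10 and deepTools. The deposited peak lists give an IDR score (540 or more here), a summit fold enrichment ratio and a −log10 p-value, each pooled over the cultures of a genotype. Depth per culture is not in these lists, and interval strength carries no error between cultures.

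The 10 genes, the gene lists and the motifs were chosen with earlier results of these data known. Named intervals were those nearest the TSS and highest in fold enrichment in each list, and all intervals of members with at most 6. The remaining intervals of *Klf4* and *Nanog* and the other shared intervals of *Esrrb* were named after their values were seen.

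A distinct interval was assigned by its summit of highest fold enrichment to the nearest protein-coding TSS (GENCODE M21 basic). Overlap of 1 bp made an interval shared. Reads and background were solved from fold enrichment and −log10 p under the Poisson model of MACS2, and came out whole within 0.05 for 99.9993% of parent and 100% of deletion peaks. Motifs were matched within 100 bp of the summit in GRCm38.p6. The solving of reads and the overlap classes were checked on simulated data, and the nearest TSS on annotated start sites. The simulated reads used the same Poisson formula as the solving step. The motif matching and the pairing of shared intervals were not checked in this way. Python 3 with pandas, scipy and pysam was used. Alternatives were the optimal lists, an IDR score of at least 830, a distance of 10 kb, merged intervals, interval midpoints, all genes competing, equal list lengths, scaled depth, 50% reciprocal overlap, absence from both lists of the other genotype and a promoter distance of 2.5 kb.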

Additional observations from a re-analysis of the deposited data

How the results depend on the processing

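No paired analysis was possible because each list is pooled over the cultures of its genotype, and for the same reason no culture could be left out. Of 54 values recomputed for the counts, ranks, ratio and motif, 42 stayed. A count stayed if it was within 1.5 times the count reported. A rank or ratio stayed only if it did not change, so the recomputed ranks are among those that moved. With a distance of at most 10 kb the members had 10 parent and 15 deletion intervals, of which 3 were parent-only and 8 deletion-only. With all genes competing for the nearest TSS 13 intervals were deletion-only, and with a promoter distance of 2.5 kb 5 members had a promoter interval in the parent list, *Lefty1* and *Lin28a* being added. The optimal lists, the IDR score of at least 830, equal list lengths, the scaled depth, midpoints, 50% reciprocal overlap and absence from both lists of the other genotype kept each count over all the members within 1.5 times, although with equal list lengths *Klf4* had 7 deletion intervals in place of 11. Of the member intervals, 23 of 25 in the parent list and 34 of 35 in the deletion list overlapped the optimal list of their own genotype, the exceptions being *Esrrb* at 7.9 and 18.8 kb and *Tfcp2l1* at 29.3 kb. Merging changed nothing, since the intervals of a list do not overlap.

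Alternatives chosen after seeing the data moved the median log2 ratio at shared member intervals from 0.01 to −0.32 without *Esrrb*, and to 0.24 relative to the median of all shared intervals. The median member interval ranked in the top 57.6% of the parent list by −log10 p and the top 63.6% by summit reads, and in the top 34.9% and top 36.0% of the deletion list. Among the counts of single genes, 23 of 160 moved by over 1.5 times. The cause was not tested. With no value per culture, the lists show presence and strength but no error.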
